A study of Sus scrofa with 6 samples.

Results

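The 10 genes described here were the cyclins and cyclin-dependent kinases that act in turn from G1 to mitosis: CCND1, CDK4, CDK6, CCNE1, CCNE2, CDK2, CCNA2, CDK1, CCNB1 and CCNB2. They were chosen by name, with earlier results of these data known, as were the gene lists below. Counts of calls set beside the share over all tested genes therefore describe these genes and do not test them. Member rows were found by the gene name in the deposited table or, where that name was blank, by the gene description. Of the 10, 9 matched a gene ID, out of 31908 gene IDs in the table, and CCNA2 (cyclin A2) was not analysed here. RNA had been sequenced from IPEC-J2 cells, a non-transformed epithelial line from the jejunum of newborn piglets, in 3 libraries of cells given PBS (CON) and 3 libraries of cells treated with 50 μM chenodeoxycholic acid (CDCA), a primary bile acid, all collected after 24 h. The line and the time were shared by both groups, and the design held 1 cell line, 1 dose and 1 time. The study's text calls the libraries of a group biological replicates, but neither it nor the labels say whether they came from separate cultures. The p-values below therefore measure only the spread between these libraries.

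A cyclin-dependent kinase is inactive until a cyclin binds it, and the supply of cyclins rises and falls through the division cycle. D-type cyclins bind CDK4 and CDK6 in G1 and begin to inactivate the retinoblastoma protein, which frees E2F factors to switch on the genes of DNA synthesis. E-type cyclins with CDK2 complete this step at the start of S phase, cyclin A takes over in S and G2, and B-type cyclins with CDK1 drive entry into mitosis. The mRNA of cyclin D1 follows growth signals more than cell cycle position, whereas those of CDK1 and the B-type cyclins accumulate in G2 and are low in G1. In the intestine, such dividing cells sit in the crypts and supply the epithelium with new cells.

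The comparison asked whether CDCA altered the mRNA levels of this machinery. Columns were assigned to CON and CDCA by their names, which equal the sample titles, and no independent value was used here to check that assignment, so each direction below rests on those names. Every listed transcript carried a TPM value (transcripts per 1000000), which corrects for transcript length and library size, and the transcripts of a gene ID were summed. Listed values summed to 351770 to 366073 TPM per library, below the 1000000 TPM of a library in full, and the read depth behind a value is unknown. The mtDNA-encoded mRNAs made up between 13.8% and 15.03% of that sum in the CON libraries, against 2.9% to 3.45% with CDCA, so the members were also compared with totals that left those mRNAs out. Epithelial marker genes were present: KRT8 averaged 226 TPM in CON and 209 TPM in CDCA, and EPCAM 122 TPM and 160 TPM. CLDN4, a claudin of the tight junction, was called higher, at 225 ± 11.2 TPM in CON and 806 ± 50.5 TPM with CDCA (SD, n = 3 each, log2 fold change 1.84, limma adjusted p = 3.7e-06). The summed epithelial list thereby stood at 624 to 648 TPM in CON and 1182 to 1322 TPM with CDCA, and its part in the results was not tested. CDH1 and VIL1, also epithelial, lay under 1 TPM, as did PCNA, the sliding clamp that dividing cells need, at 0.433 TPM in CON, so a low listed value does not show that a gene was silent. Markers of fibroblasts summed to at most 1.77 TPM in any library and those of endothelium to at most 2.31 TPM. The leukocyte list summed to 0.41 to 1.32 TPM in CON and 4.85 to 5.97 TPM in CDCA. In CDCA most of the sum was CD68, a lysosomal protein, and in CON, on average, most was CD3E, of the T cell receptor, with PTPRC at 0 or 0.01 TPM, and its part in the results was not tested.

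In the libraries labelled CDCA, the mRNA of CDK1, of both B-type cyclins, of cyclin E2 and of the gene ID named CDK2 stood at between 0.215 and 0.348 of its level in those labelled CON. Cyclin D1 and CDK4, the G1 pair, fell less, to 0.653 and 0.582 of CON. Cyclin E1 and CDK6 were listed at no more than 2.36 TPM in any library, with overlapping groups. A gene was tested where its mean over the 6 libraries was at least 1 TPM, and 7 members were. A gene was called where the adjusted p was under 0.05 by limma on log2(TPM + 1), with Benjamini-Hochberg adjustment over all 8708 tested genes, and the log2 fold change lay beyond 1 in either direction. Of the 10 members, 7 of them tested, 5 were called lower and none higher, where 3.9% of all tested genes were called lower and 3.51% higher. The 5 include the gene ID named CDK2, which passed the filter only through its CON libraries and is described as RAB5B. For CDK4 and CCND1 the adjusted p was under 0.05 but the change was under 1 in size. In bulk RNA, fewer cells of a cycle phase and less mRNA per cell cannot be told apart.

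**Figure D1:**
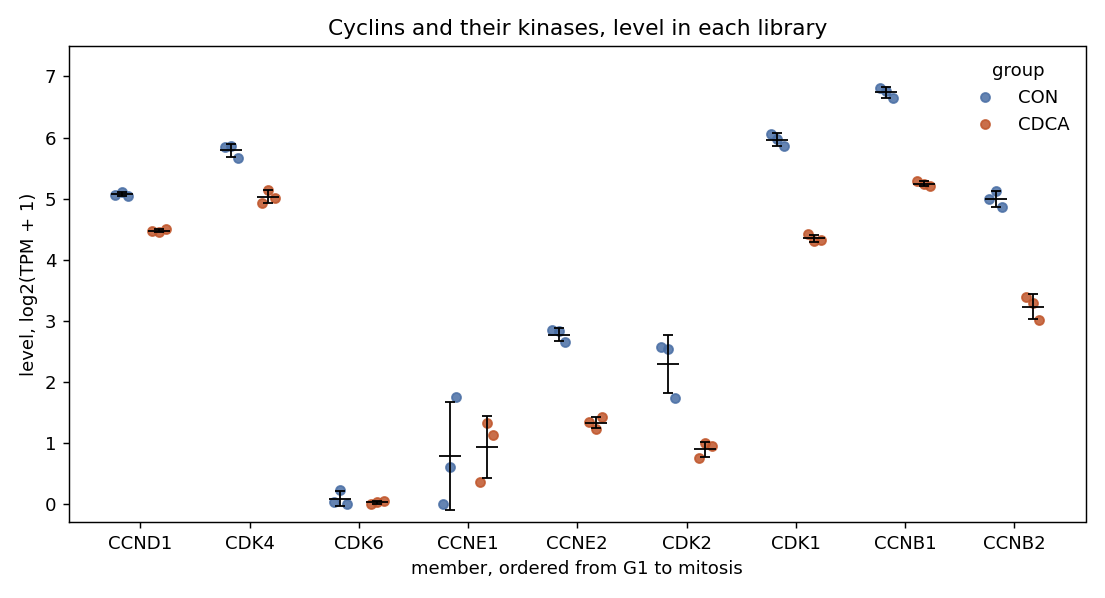
Level of each listed member on the log2(TPM + 1) scale (vertical axis), with members ordered from G1 to mitosis (horizontal axis); points are single libraries, 3 in CON and 3 in CDCA, and bars give the mean ± SD. In 7 members the CDCA points lie below the CON points, and in CDK6 and CCNE1 they overlap.

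Cyclin D1 (CCND1, ENSSSCG00000037900) is the cyclin whose synthesis mitogens raise in G1. Its CON libraries gave 32.4, 33.5 and 31.9 TPM, and its CDCA libraries 21.2, 20.8 and 21.8 TPM. It was the least variable member, with a coefficient of variation of 2.5% in CON and 2.26% in CDCA, and the groups lay well apart. Its mean fell from 32.6 ± 0.816 to 21.3 ± 0.481 TPM (SD, n = 3), and its log2 fold change was -0.59 (SE 0.04, 95% interval -0.70 to -0.49, limma adjusted p = 7.6e-05).

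CDK4 (ENSSSCG00000025092), the kinase that cyclin D1 activates, stood at 56.6, 57.1 and 49.8 TPM in the CON libraries, against 29.6, 34.3 and 31.4 TPM with CDCA. All CDCA libraries lay below all CON libraries, with a gap wider than the range within either group. Its mean went from 54.5 ± 4.08 to 31.7 ± 2.37 TPM (SD, n = 3), a log2 fold change of -0.76 (SE 0.08, interval -0.94 to -0.58, limma adjusted p = 0.00026). The interval of neither CDK4 nor CCND1 reached the limit of -1 for a call.

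CDK6 (ENSSSCG00000040183), the other partner of D-type cyclins, gave 0.02, 0.17 and 0 TPM in the CON libraries, against 0, 0.02 and 0.03 TPM with CDCA. It had 1 listed transcript, and nothing can be said of a change at these values. CDK4 was thus the only D-type cyclin partner with a level that could be compared.

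Cyclin E2 (CCNE2, ENSSSCG00000006095), which activates CDK2 at the start of S phase, gave 6.16, 6.15 and 5.25 TPM in the CON libraries, against 1.53, 1.35 and 1.67 TPM with CDCA. The groups did not overlap, and each varied little beside the gap between them. Its mean fell from 5.85 ± 0.522 to 1.52 ± 0.160 TPM (SD, n = 3), which left 0.259 of the CON level. The log2 fold change came to -1.44 (SE 0.10, interval -1.68 to -1.21, limma adjusted p = 5.8e-05), which understates the ratio because 1 TPM was added to low values.

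Cyclin E1 (CCNE1, ENSSSCG00000002855) has the same role as cyclin E2, but its values were scattered. They were 0, 0.52 and 2.36 TPM in the CON libraries, against 0.28, 1.5 and 1.18 TPM with CDCA, with both the lowest and the highest value in CON. Its mean over the 6 libraries, 0.973 TPM, lay just under the limit for a test. With no filter on low values its log2 fold change was 0.15 (SE 0.49, limma adjusted p = 0.86), and the difference between the E-type cyclins was not tested.

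The gene ID named CDK2 (ENSSSCG00000037597) carries that name in the deposited table and in the table of Ensembl IDs, yet its description in the deposited table is that of RAB5B, a GTPase of early endosomes. In the RefSeq annotation of Sscrofa11.1, CDK2 and RAB5B are next to each other with no gene between. Its 7 listed transcripts could not be assigned to either gene, so the values are given for the ID and not for CDK2 alone. Summed over its transcripts, the ID gave 4.95, 4.83 and 2.33 TPM in the CON libraries, against 0.69, 0.99 and 0.92 TPM with CDCA. CON replicate 3 stood apart from the other CON libraries but still above every CDCA library. The mean fell from 4.04 ± 1.48 to 0.867 ± 0.157 TPM (SD, n = 3), and the log2 fold change was -1.39 (SE 0.24, interval -1.95 to -0.82, limma adjusted p = 0.0029). Of the tested members it had the widest error, its interval crossed -1, and it passed the filter only through its CON libraries.

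CDK1 (ENSSSCG00000010214), the kinase of mitotic entry, gave 65.7, 62.0 and 57.2 TPM in the CON libraries, against 20.4, 18.7 and 19.0 TPM with CDCA. The groups lay far apart, and the spread within CDCA was small. Its mean fell from 61.6 ± 4.28 to 19.4 ± 0.881 TPM (SD, n = 3). Its log2 fold change was -1.62 (SE 0.06, interval -1.77 to -1.47, limma adjusted p = 7.9e-06).

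Cyclin B1 (CCNB1, ENSSSCG00000029326), the main partner of CDK1, was the most abundant member in every library, at 112, 107 and 98.8 TPM in CON and 38.0, 36.8 and 35.8 TPM in CDCA. The spread was small beside the gap between the groups. Its mean fell from 106 ± 6.50 to 36.9 ± 1.11 TPM (SD, n = 3), with a log2 fold change of -1.50 (SE 0.06, interval -1.63 to -1.37, limma adjusted p = 6.3e-06).

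Cyclin B2 (CCNB2, ENSSSCG00000004588), a B-type cyclin found largely at the Golgi, gave 30.8, 33.7 and 28.0 TPM in the CON libraries, against 9.52, 8.78 and 7.06 TPM with CDCA. No library of one group reached the range of the other. Its mean fell from 30.8 ± 2.84 to 8.45 ± 1.26 TPM (SD, n = 3). Its log2 fold change of -1.76 (SE 0.12, interval -2.03 to -1.48, limma adjusted p = 4.7e-05) was the furthest below 0 among the tested members on the log2(TPM + 1) scale, but by the ratio of means the CDK2 ID (0.215) and CCNE2 (0.259) fell further than CCNB2 (0.274). With a pseudocount of 0.1 TPM the log2 fold changes were -2.04 for the CDK2 ID, -1.88 for CCNE2 and -1.86 for CCNB2. The intervals of CCNB2, CDK1, CCNB1, CCNE2 and the CDK2 ID overlapped one another.

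**Figure D2:**
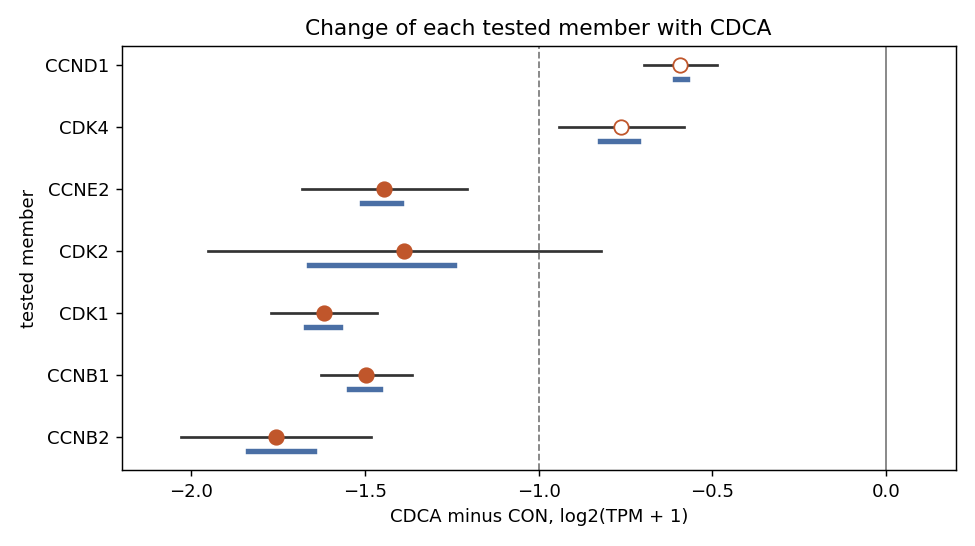
Change of each tested member (vertical axis) as CDCA minus CON on the log2(TPM + 1) scale (horizontal axis); circles are the limma estimates (filled, called lower), black lines the 95% intervals and blue lines the range with single libraries left out. CCND1 (-0.59) and CDK4 (-0.76) lie to the right of the dashed line at -1, and the other 5 lie to its left.

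In all 7 tested members the highest CDCA library was under the lowest CON library, a pattern seen for 27.8% of the tested genes, and each of the 7 had an adjusted p under 0.05 with a lower level, as did 23.9% of the tested genes. The calls did not depend on a single library. With libraries left out singly, the log2 fold change ranged from -1.67 to -1.57 for CDK1, from -1.55 to -1.46 for CCNB1, from -1.84 to -1.65 for CCNB2 and from -1.51 to -1.40 for CCNE2. That of the CDK2 ID moved most, from -1.66 to -1.24. With totals that left out the mtDNA-encoded mRNAs, the median of all tested genes moved from 0.05 to -0.08 and the falls were somewhat larger, at -0.74 for CCND1, -0.91 for CDK4 and -1.77 for CDK1. ACTB and GAPDH, used as reference genes in RT-qPCR, behaved differently from each other: ACTB fell from 1241 ± 77.5 to 753 ± 43.2 TPM (SD, n = 3), a log2 fold change of -0.72 (limma adjusted p = 0.00014), and GAPDH stood at 247 ± 65.1 and 253 ± 32.6 TPM (SD, n = 3 each), with overlapping groups.

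The members with several listed transcripts showed whether the sum hid a shift between them. For CDK1, 3 of the 5 listed transcripts made up nearly all of the sum. The most abundant went from 25.6, 20.3 and 21.4 TPM in CON to 7.33, 6.92 and 5.83 TPM in CDCA, a ratio of 0.299. The next went from 22.2 ± 1.87 to 5.87 ± 0.743 TPM (SD, n = 3), a ratio of 0.265, and the third from 16.6 ± 1.09 to 6.42 ± 0.734 TPM (SD, n = 3), a ratio of 0.388. All of these fell with no overlap between groups. The third held 26.7% to 27.1% of the CDK1 sum in CON and 30.7% to 35.3% in CDCA, so it fell less than the sum as a whole.

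The CDK2 ID was less even. Its most abundant transcript gave 4.45, 3.08 and 1.77 TPM in the CON libraries, against 0, 0.41 and 0.44 TPM with CDCA, and made up 63.8% to 89.9% of the sum in CON. The next transcript, at 0.50, 0.95 and 0.56 TPM in CON and 0.28, 0.54 and 0.20 TPM in CDCA, had overlapping groups. A further transcript was at 0, 0.09 and 0 TPM in the CON libraries, against 0.41, 0.04 and 0.28 TPM with CDCA, again with overlap, and made up as much as 59.4% of the sum in CDCA replicate 1. The last above 0 was seen in CON replicate 2 alone (0.71 TPM). Most of the fall of the ID was thus in 1 transcript, whose gene, CDK2 or RAB5B, is not known here, and the makeup of the sum differed between libraries. CCNB2 had 1 transcript above 0 of 3 listed, CCNE2 had a further transcript that was above 0 only in CON replicate 2 (0.52 TPM), and CCND1, CDK4 and CCNB1 had 1 listed transcript each.

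**Figure D3:**
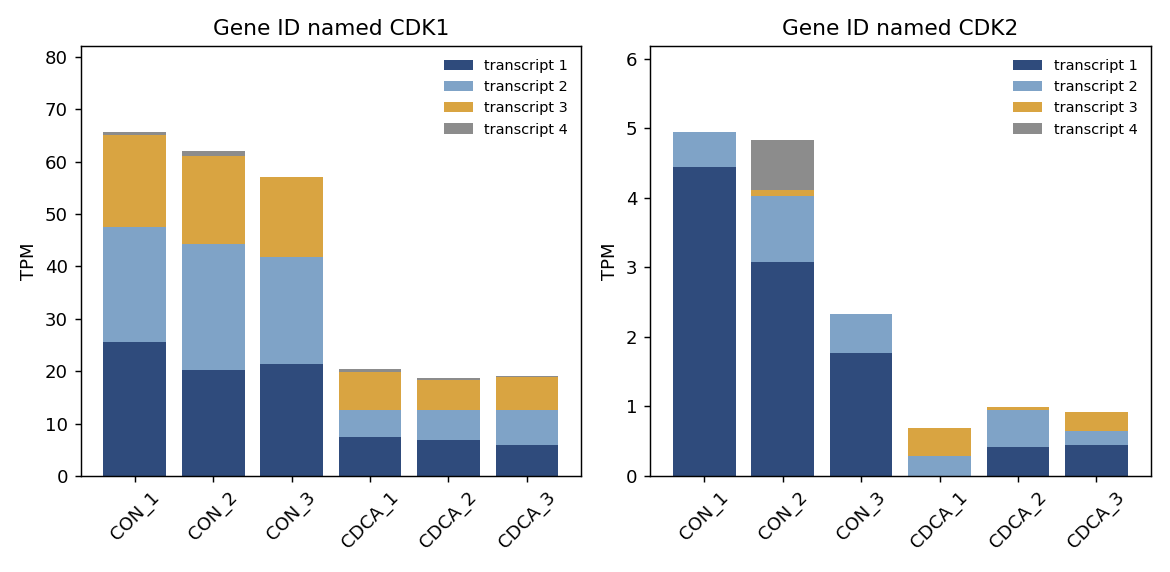
Stacked TPM (vertical axis) of the listed transcripts above 0 of the gene IDs named CDK1 and CDK2 in each of the 6 libraries (horizontal axis), numbered by their mean. For CDK1 the 3 main transcripts all shrink in CDCA, and for the CDK2 ID most of the loss is in transcript 1.

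TPM corrects for length, so listed levels can be set in order. The listed values were only a part of each library, and transcripts of a gene may be missing from them. The order, and the size of a ratio between members, thus holds for the listed values only. In all 3 CON libraries CCNB1 came first, CDK1 next and then CDK4, and CCND1 and CCNB2 followed with overlapping values. CCNE2 (5.25 to 6.16 TPM) came after these, above the CDK2 ID (2.33 to 4.95 TPM) but by little. In all 3 CDCA libraries CCNB1 was still first, but CDK4 (29.6 to 34.3 TPM) and CCND1 (20.8 to 21.8 TPM) now stood above CDK1 (18.7 to 20.4 TPM). The gaps between neighbours were narrow in places: in CON the lowest CDK1 library (57.2 TPM) barely exceeded the highest CDK4 library (57.1 TPM), and in CDCA the lowest CCND1 library (20.8 TPM) barely exceeded the highest CDK1 library (20.4 TPM).

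Ratios between members within a library do not depend on how that library was scaled. Of 8 planned ratios between partners or successive members, 5 had a value above 0 for both genes in every library. They were compared by an exact permutation test over the libraries, two-sided, whose smallest p for 3 against 3 is 0.1, so no ratio could pass 0.05. CCNB1 to CDK1 was nearly constant within a group, at 1.70 to 1.73 in CON and 1.86 to 1.96 in CDCA. The groups did not overlap, but the difference was small, 0.15 on the log2 scale (exact permutation p = 0.1, adjusted over the 5 ratios 0.25). CCNB2 to CCNB1 was 0.276 to 0.314 in CON and 0.197 to 0.250 in CDCA, a log2 difference of -0.35 (exact permutation p = 0.1, adjusted 0.25), so cyclin B2 was lower relative to cyclin B1 in each CDCA library.

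CCND1 to CDK4 overlapped between the groups, at 0.572 to 0.640 in CON and 0.607 to 0.718 in CDCA, with a log2 difference of 0.17 (exact permutation p = 0.2, adjusted 0.333). The same held for CCNE2 to the CDK2 ID, with a log2 difference of 0.21 (exact permutation p = 0.6), and for CDK1 to the CDK2 ID, with 0.49 (exact permutation p = 0.3). Both of these carried the scatter of the CDK2 ID, whose CON replicate 3 alone moved the mean of CON: the log2 ratio of CDK1 to the ID was 3.73, 3.68 and 4.62 in the CON libraries.

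A further pair of ratios, chosen after the values were seen, set the mitotic members against the G1 members. CDK1 to CDK4 went from 1.09 to 1.16 in CON down to 0.546 to 0.689 in CDCA, a log2 difference of -0.89. CCNB1 to CCND1 went from 3.10 to 3.44 in CON down to 1.64 to 1.79 in CDCA, a log2 difference of -0.91. In both, all CDCA libraries lay below all CON libraries. These pairs were picked for the difference in their fold changes given above, so the values describe that difference and do not test it.

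**Figure D4:**
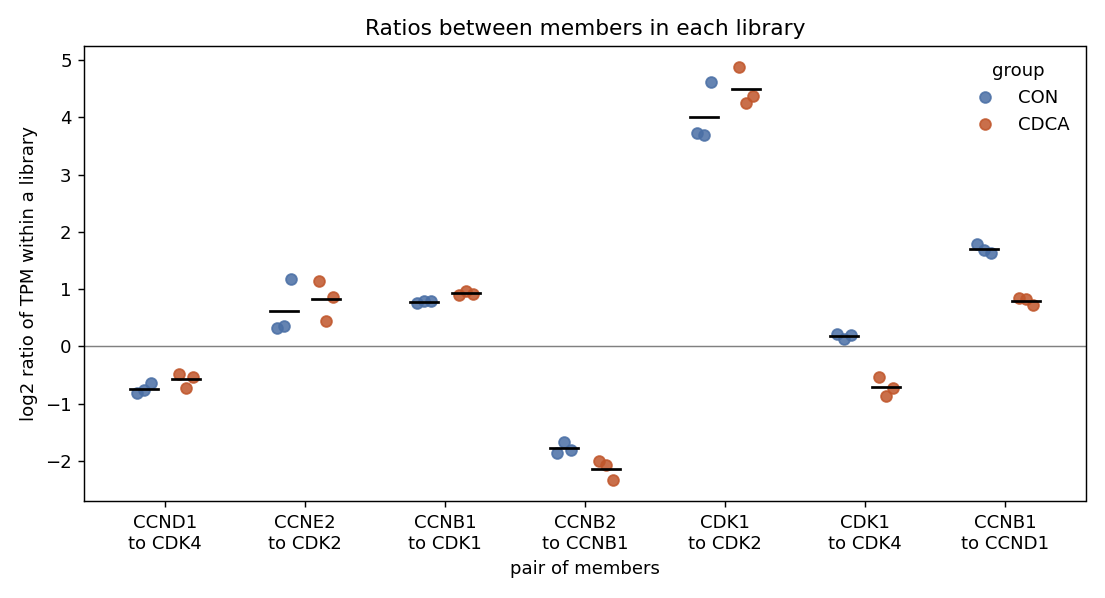
Log2 ratio of TPM between members within each library (vertical axis) for 7 pairs of members (horizontal axis); points are libraries and black lines group means. CDK1 to CDK4 crosses from above 0 in CON to below 0 in CDCA, while CCND1 to CDK4 overlaps between the groups.

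A list of 39 other genes held further cyclins and kinases, with MNAT1, which assembles CDK7 with its cyclin. Some serve division, such as CCNF, CCNB3, CCND2 and CCND3. Others serve transcription, such as CDK8, CDK9, CDK12 and their cyclins, and CDK7 serves both transcription and, as the kinase that activates other CDKs, division. Of the 39, 27 were tested, and 1 was called lower and 1 higher, near the shares over all tested genes (3.9% lower and 3.51% higher). Their median log2 fold change was 0.23, against 0.05 for all tested genes and -1.44 for the 7 tested members, and 4 had an adjusted p under 0.05 with a lower level and 8 with a higher level, where 23.9% of all tested genes had a lower and 29.3% a higher level.

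The gene called lower was CCNF, a cyclin that binds no kinase and serves in a ubiquitin ligase in G2, which fell from 25.01 ± 1.99 to 10.7 ± 0.781 TPM (SD, n = 3), a log2 fold change of -1.15 (limma adjusted p = 5.7e-05). The gene called higher was CCNG2, an atypical cyclin linked to cell cycle exit, with a log2 fold change of 1.20 (limma adjusted p = 4.6e-05). CCNL1, a cyclin of RNA splicing, went from 14.7 ± 2.85 to 28.4 ± 3.80 TPM (SD, n = 3), with a log2 fold change of 0.92 (limma adjusted p = 0.0028) that was not called. CCNI, which passed the filter only through CDCA, had a log2 fold change of 0.90 and overlapping groups (limma adjusted p = 0.063).

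Of 40 genes that restrain, activate or serve the cyclin-kinase complexes, 27 were tested. Among these 7 were called lower and none higher, beside the 3.9% and 3.51% of all tested genes. Their median change was -0.45 on the log2 scale, and 3 of the 27 passed the filter only through CON. CDKN2C, the inhibitor p18 that blocks CDK4 and CDK6, had a log2 fold change of -2.04 (limma adjusted p = 2.8e-06), the furthest below 0 on the log2(TPM + 1) scale. By the ratio of means E2F8 (0.153), E2F2 (0.176) and FBXO5 (0.194) fell further than CDKN2C (0.226). FBXO5, which holds back the anaphase-promoting complex and so spares cyclins A and B, fell from 8.87 ± 1.49 to 1.72 ± 0.328 TPM (SD, n = 3). CDC20, the activator through which that complex destroys cyclin B in mitosis, fell from 97.2 ± 3.13 to 39.3 ± 1.84 TPM (SD, n = 3). CDC25B, a phosphatase that activates CDK1, was also called lower, with a log2 fold change of -1.04 (limma adjusted p = 1.5e-05). An adjusted p under 0.05 was reached by 17 of the 27 with a lower level and by 4 with a higher level, against 23.9% and 29.3% of all tested genes. The 4 were WEE1 (0.54), which keeps CDK1 inactive, E2F6 (0.69), RBL2 (0.27) and LIN54 (0.70). None of these log2 fold changes reached 1. Genes of like role went the other way, also with an adjusted p under 0.05. Among them were RB1 (-0.36) and RBL1 (-0.43), of the same family as RBL2, CDKN2D (-0.635), of the family of CDKN2C, and LIN9 (-0.80). CDC25B, the 4 higher genes and these lower genes were named after their values were seen.

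Transcription factors of the cycle were among those called lower. FOXM1, which drives the genes of G2 and mitosis including CCNB1, fell from 6.99 ± 0.337 to 1.62 ± 0.711 TPM (SD, n = 3), a log2 fold change of -1.65 (limma adjusted p = 0.00062). E2F8, a repressor made in S phase, fell from 7.62 ± 0.634 to 1.17 ± 0.0850 TPM (SD, n = 3), and E2F2, an activator, from 2.04 ± 0.134 to 0.360 ± 0.0800 TPM (SD, n = 3), though E2F2 passed the filter only through CON. MYBL2, a partner in the same transcription complex as FOXM1, gave 51.3, 16.8 and 33.9 TPM in the CON libraries, against 13.2, 4.09 and 17.9 TPM with CDCA, with overlapping groups and an adjusted p of 0.060 by limma. MYBL2 was called lower under 4 alternatives, among them the replicate block (log2 fold change -1.52, limma adjusted p = 0.0055). It was also called without CON replicate 2 (-1.94, limma adjusted p = 0.039) and without CDCA replicate 3 (-1.91, limma adjusted p = 0.047). PKMYT1, a kinase that keeps CDK1 inactive, had a log2 fold change of -0.95 (limma adjusted p = 0.0021) and was not called, but 6 alternatives called it lower, with -1.52 at a pseudocount of 0.1 TPM. It too passed the filter only through CON.

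Of 30 S phase genes, chosen as genes known to peak in that phase, 20 were tested. The calls came to 15 lower and 0 higher, beside 3.9% and 3.51% of all tested genes, and the median change was -1.48 on the log2 scale. RRM2, the cell cycle-dependent subunit that makes deoxynucleotides, fell from 233 ± 12.4 to 40.9 ± 1.51 TPM (SD, n = 3). HELLS, a chromatin remodeler, fell from 9.86 ± 2.96 to 0.12 ± 0.138 TPM (SD, n = 3) and DSCC1, a loader of the sliding clamp, from 7.14 ± 1.03 to 0.733 ± 0.282 TPM (SD, n = 3), and both passed the filter only through CON. FEN1, MCM3 and MCM5, which process and unwind DNA at the fork, had log2 fold changes of -2.06, -2.03 and -1.96. CDC45, which unwinds DNA with the MCM proteins, had a log2 fold change of -0.91 and was not called.

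Of 40 genes of G2 and mitosis, all with a listed ID, 34 were tested. Here 26 genes were called lower and 0 higher, again beside 3.9% and 3.51% of all tested genes, and the median change was -1.41 on the log2 scale. MKI67, the proliferation marker Ki-67, fell from 17.3 ± 0.452 to 2.10 ± 0.262 TPM (SD, n = 3), a log2 fold change of -2.56 (limma adjusted p = 3.7e-06). CDCA3, which helps destroy the mitotic brake WEE1 and shares only its letters with the bile acid, had a log2 fold change of -2.31, and AURKB and CDCA8, both of the chromosomal passenger complex, had -2.199 and -1.83. HJURP and CENPF, which serve the centromere, had -1.92 and -1.84. ANLN, with overlapping groups and a limma adjusted p of 0.056, and KIF23 (-0.84) were not called. CCNF and CDC20 stand in this list as well as in the lists above.

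**Figure D5:**
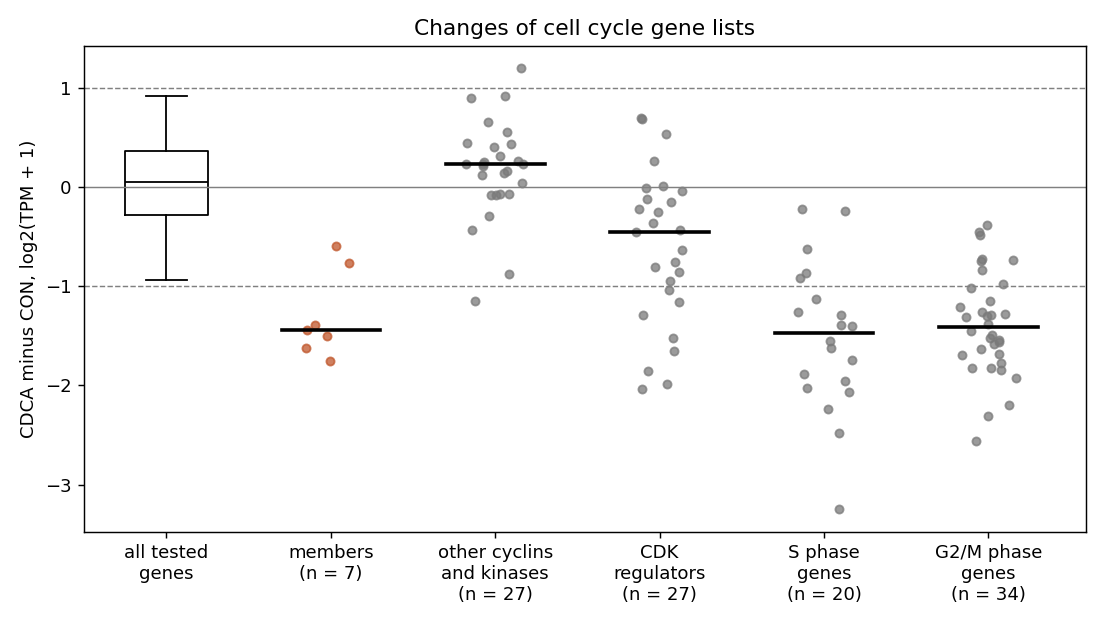
Log2 fold change, CDCA minus CON on log2(TPM + 1) (vertical axis), of all tested genes (box, median and quartiles, whiskers at percentiles 5 and 95) and of the tested genes of each list (points, with the median as a black bar). The members (median -1.44) lie with the S phase (-1.48) and G2/M (-1.41) genes, and the other cyclins and kinases (0.23) lie about 0.

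Across the 6 libraries, the genes outside the members whose log2(TPM + 1) was most like that of CDK1 were NEIL3 (Pearson's r = 0.9998), MREG (0.9998), MSRB3 (0.9995), SHCBP1 (0.9995) and the mtDNA-encoded ATP8 (0.9994). These values describe 6 libraries in 2 groups, and 339 tested genes had an r of at least 0.99 with CDK1. NEIL3, a DNA glycosylase of S and G2, fell from 9.14 ± 0.582 to 2.68 ± 0.150 TPM (SD, n = 3), and SHCBP1, a protein of the dividing cell's midbody, from 32.9 ± 2.11 to 11.03 ± 0.755 TPM (SD, n = 3). Among the members, r with CDK1 ranged from 0.942 for the CDK2 ID to 0.997 for CCNE2 and above that for CCNB1.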

How the data were processed

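RNA of 6 libraries (3 CON, 3 CDCA) was read on an Illumina NovaSeq. The authors used RSEM to estimate abundance, and the deposited table holds TPM for 63041 transcripts. Aligner settings, annotation release and filters are not given in the sources used here; the submitters' processing notes name Bowtie 0.12.2 and the mouse build mm10, although the gene IDs are those of the pig, so no coordinates are given. TPM keep no read counts, so the edgeR test of the study was not used and no counting interval was computed.

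Gene symbols were taken from a list of Ensembl IDs, which named 15029 of 31908 IDs, then from the deposited names, then, for 6 genes, from descriptions. Gene sums were compared by limma 3.58.1 (trend, R 4.3.3) on log2(TPM + 1), where the mean over all libraries reached 1 TPM, and the steps were tested on simulated data. Ratios were tested with scipy 1.17.1, with adjustment over the 5 that could be computed in place of the 8 planned. Groups came from the sample labels. Members and lists were chosen with earlier results of these data known. Genes of the lists were named by rule: at most 6 called genes with the largest change and the largest 2 not called, of which 1 S phase gene is not reported here. The alternatives were another pseudocount, no filter, a replicate block, 3 scalings, the highest listed transcript and each library left out. Single transcripts and a pair of ratios were added after seeing the data. No sequence is shown, since no sequence table was used here.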

Additional observations from a re-analysis of the deposited data

How the results depend on the processing

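The 5 members called lower, and the 2 tested but not called, kept their side of the limits and their direction under all 13 alternatives tried for each: a pseudocount of 0.1 TPM, no filter, the replicate block, 3 scalings, the highest listed transcript and the 6 libraries left out singly. The adjusted p of the CDK2 ID was highest without CDCA replicate 1 (0.014). Same-numbered libraries did not deviate together from their group means (r of -0.04, -0.09 and -0.05 over the tested genes). With 3 libraries per group this shows no broad shared shift, but it cannot settle whether the numbers pair the samples. With the replicate block the log2 fold change of CDK1 was -1.62, 5 members were called lower, and 309 genes in all were called higher and 343 lower. Over all tested genes, 306 were called higher and 340 lower; the count higher was 509 with the pseudocount of 0.1 TPM and 523 with listed TPM rescaled to 1000000, and totals without the mtDNA-encoded mRNAs gave 229 higher and 461 lower. The other cyclins and kinases called lower were 2 with the pseudocount, with the rescaling and with the mtDNA-encoded mRNAs left out, where CCNB3 joined CCNF, and those called higher were 1 to 2 with libraries left out, where CCNL1, or CCNI (which passed the filter only through CDCA), joined CCNG2. The CDK regulators called lower were 7 to 10, the S phase genes 15 to 17 and the G2/M genes 24 to 27. Of the genes named as not called, PKMYT1 was called lower under 6 alternatives, MYBL2 under 4, ANLN under 4 and CDC45 under 3. The replicate block changed the call of MYBL2 (adjusted p = 0.0055 by limma) and of no other gene of these lists. The ratio of CCNB2 to CCNB1 differed by -0.42 to -0.25 with libraries left out, and that of CCNE2 to the CDK2 ID by 0.04 to 0.49. For the ratios to the CDK2 ID, the highest listed transcript gave no value, since it was listed at 0 in CDCA replicate 1. The ratios of CCND1 to CDK6 and CCNE1 to CDK2 were left out because of values at 0, and CCNA2 to CDK2 was not analysed here. Values under about 1 TPM, as for CDK6 and CCNE1, limit what can be said at this unknown depth.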
